A study of Cavia porcellus with 24 samples.

Results

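The blood and hippocampal (HPC) methylomes of young female guinea pigs exposed before birth to the synthetic glucocorticoid (sGC) betamethasone were compared with each other, cytosine by cytosine. The deposited tables list methylated and total read counts for CpG cytosines on each strand, 1 table for whole blood and 1 for HPC. They were joined on scaffold, position and strand, and every cytosine with at least 20 sGC reads in both tissues was kept. This gave 2392328 cytosines on 1405 scaffolds, which is 93.3% of the 2564116 cytosines listed for both tissues and 74.0% of the 3233055 listed for either.

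The series holds 24 samples, with 6 in each of 4 groups: whole blood and HPC of sGC-exposed females, and whole blood and HPC of saline-exposed females (Control). Pregnant Hartley guinea pigs received 3 subcutaneous courses of betamethasone at 1 mg/kg, beginning on gestational days 40, 50 and 60, or saline, and 1 female per litter was sampled on postnatal day 14. The same 6 exposed animals gave both tissues, and the 6 Control animals were others. Methylation was measured by reduced representation bisulfite sequencing (RRBS), in which DNA is cut at CCGG sites, so that CpG-rich stretches are read deeply and most of the genome is not read. The tables give 1 pair of counts per group, the sum over its 6 animals. No spread between animals could therefore be measured, and every test below compares pools of reads, not animals. Whole blood and HPC are mixtures of cells, so that a difference within a cell type and a difference in the mixture cannot be told apart. Blood and HPC DNA were extracted with different kits, and kit and tissue cannot be told apart either. The labelled tissues could not be checked against marker genes, because no gene annotation of the guinea pig build used for the tables (cavPor3) was used here.

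DNA methylation in mammals sits mainly on the cytosine of CpG dinucleotides, and both strands of a CpG usually carry the same state. Most CpGs in the genome are methylated, whereas dense CpG islands at promoters are mostly not. Cell types differ at regulatory stretches such as enhancers and island edges, where a lineage that uses the sequence tends to lack the methylation that others keep.

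Blood was the more methylated tissue in the exposed animals. Mean methylation over the 2392328 cytosines was 62.1% in blood and 57.7% in HPC, and the medians were 86.7% and 75.6%. The same cytosines averaged 61.5% in Control blood and 56.6% in Control HPC. The median cytosine was covered by 108 sGC reads in blood (quartiles 67 and 155) and 103 in HPC (quartiles 64 and 147), against 88 and 94 reads in the Control pools. Both sGC pools were thus deeper than the Control pools, and about equally deep to each other.

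The excess in blood came with a shift out of the intermediate range. In HPC 25.8% of the cytosines were methylated at more than 20% and up to 80%, against 15.2% in blood. More than 80% methylation was found at 56.4% of cytosines in blood and at 45.8% in HPC. The share at 20% or less was nearly equal, 28.5% in blood and 28.4% in HPC. Cytosines with little methylation were therefore as common in one tissue as in the other, and the tissues parted at the higher levels.

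**Figure D1:**
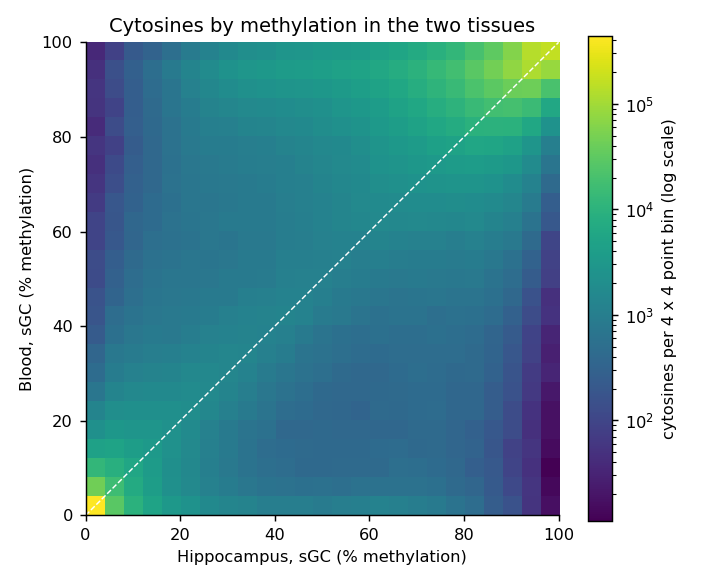
Methylation in sGC HPC (x axis, %) against sGC blood (y axis, %) at the 2392328 cytosines, with colour giving the number of cytosines per bin on a log scale and the dashed line marking equal levels. Cytosines crowd the low corner and the high corner, and more of those between them lie above the line than below it.

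At single cytosines the difference of blood less HPC averaged 4.40 percentage points (SD 17.1 over cytosines), and its median was 1.31 points with quartiles of -1.34 and 7.99. Blood was higher at 61.5% of the cytosines, HPC at 36.4%, and 2.05% were equal. Most differences were small: the median absolute difference was 4.15 points. The tails were long, with 1% of cytosines below -50.3 points and 1% above 62.1. Weighting each cytosine by its reads lowered the mean to 2.53 points. Values on either side of the coverage minimum were close, with a mean of 5.26 points at the 82073 cytosines just inside it (20 to 24 reads in the shallower tissue) and 5.18 points at the 88441 just outside it (15 to 19 reads).

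By a two-sided Fisher's exact test of the pooled read counts, with p-values adjusted over all 2392328 cytosines by the Benjamini-Hochberg method, 555675 cytosines (23.2%) differed at an adjusted p under 0.05 and by at least 5 points. Of these, 420570 (17.6% of those tested) were hypermethylated in blood and 135105 (5.65%) in HPC, so that blood was the higher tissue at 75.7% of the differing cytosines. Blood-hypermethylated cytosines had a median of 92.1% in blood and 58.3% in HPC. HPC-hypermethylated cytosines had a median of 24.2% in blood and 70.6% in HPC. The first set was thus near full methylation in its higher tissue, and the second set was low in blood but short of full methylation in HPC. Reads of 1 animal are not independent of each other, and an assumed dispersion of 0.2 between animals lowered the count to 155809, with blood higher at 74.3% of them.

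The asymmetry depended on the size asked for. At a difference of 5 points or more, without a test, 775419 cytosines were higher in blood and 310436 in HPC, a ratio of 2.50. The ratio was 2.81 at 10 points and 2.91 at 25 points, where 222221 cytosines (9.29%) were higher in blood and 76436 (3.20%) in HPC. It was 2.59 at 50 points (62970 against 24355) and 1.79 at 75 points (4736 against 2652). At 90 points or more, 182 cytosines were higher in blood and 107 in HPC. In the sGC pools the ratio was thus greatest at 25 points and smaller at 75 points and above. In the Control pools the same ratios were 2.72, 3.13, 3.29, 2.86 and 1.91 from 5 to 75 points, each somewhat higher than in the sGC pools. At 90 points, where few cytosines remained, the Control pools had 201 higher in blood and 63 higher in HPC, a ratio of 3.19 against the 182 and 107 of the sGC pools, so that the lower ratio at 75 points did not continue there in Control. Whether these ratios differ between exposures was not tested, since each exposure has 1 pool per tissue.

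**Figure D2:**
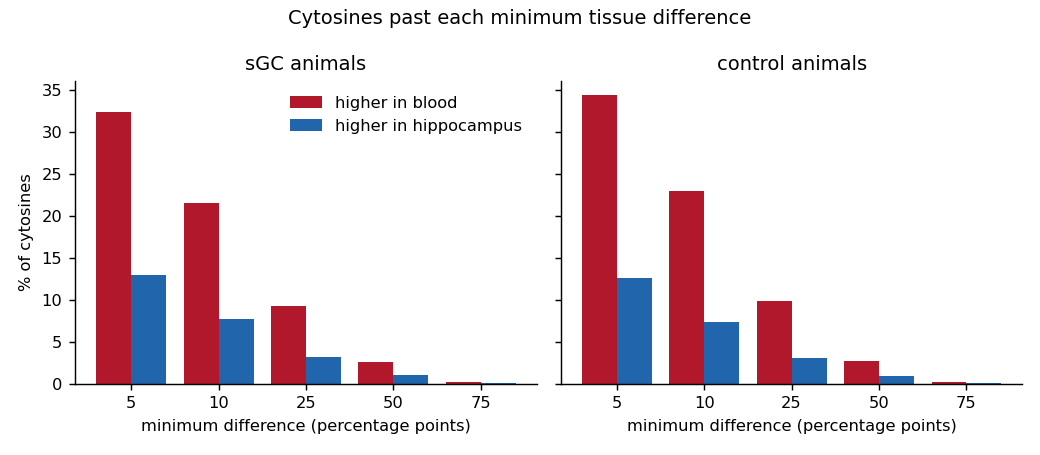
Share of cytosines (bars, y axis, %) whose tissue difference reaches each minimum (x axis, percentage points), in red for cytosines higher in blood and blue for those higher in HPC, with the sGC animals on the left and the Control animals on the right. The blood bar is the taller at every minimum drawn, with 9.29% against 3.20% at 25 points in the sGC animals.

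Sorting each tissue into low (20% or less), intermediate and high (above 80%) methylation showed where the asymmetry lay. Both tissues were high at 1023123 cytosines (42.8%), both low at 622526 (26.0%) and both intermediate at 245854 (10.3%). The most frequent change of class was from intermediate in HPC to high in blood, at 317422 cytosines (13.3%). The reverse, high in HPC and intermediate in blood, was found at 69004. Of the HPC-intermediate cytosines 51.4% were high in blood, whereas 19.0% of the blood-intermediate cytosines were high in HPC. Steps between low and intermediate were nearly balanced in sGC, with 48206 cytosines low in HPC and intermediate in blood and 54842 the other way. In Control these counts were 64871 and 46062, so that the near balance and its direction did not hold there. Full switches were rare: 7747 cytosines were low in HPC and high in blood, and 3604 were high in HPC and low in blood.

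The same dependence on level appeared when cytosines were binned by a measure that did not use the sGC reads. In bins of mean Control methylation 10 points wide, 3.86% of cytosines differed between the sGC tissues in the lowest bin and 5.61% in the highest, against 71.0% in the bin from 50% to 60%. A mean near either end of the scale leaves little room for a tissue difference in Control, with which the sGC difference was correlated. How many cytosines differed per bin was therefore set in part by the binning, and only the direction is read here. Among differing cytosines the share higher in blood was 52.5% in the lowest bin and 48.2% in the next, and it reached 86.6% in the bin from 80% to 90%. It was 56.6% in the bin from 30% to 40% and 64.4% in the bin from 40% to 50%. The tissues were thus close to balanced in the lowest bins, and the predominance of blood was greater at higher levels.

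The tissue difference also varied with the density of CpGs around a cytosine. The number of CpG sites listed within 100 bp was used as a measure of local density that needs no annotation. Cytosines with 1 such site, themselves included, averaged 81.1% methylation in blood and 75.7% in HPC, and those with at least 16 sites averaged 29.2% and 26.2%. The mean difference was 5.41 points in the sparsest class and 2.97 in the densest. Differing cytosines made up 25.2% of the sparsest class, 27.0% of the class with 2 to 3 sites and 15% of the densest. Blood was the higher tissue at 78.8% of differing cytosines in the sparsest class and at 70.2% in the densest. Every density class had its excess in blood, and the excess was smaller in CpG-dense stretches. Methylation level fell with density and was not matched between classes, so that density and level cannot be told apart here. Deeper cytosines were called more often, from 16.2% at 20 to 49 reads to 31.1% at 200 reads or more, while the share higher in blood stayed between 75.2% and 76.4% across depths.

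The tissue difference of the exposed animals was set beside that of the Control animals, which shared no animal with them. At the 2342490 cytosines that also had 20 Control reads in both tissues, the mean difference was 4.38 points in sGC and 4.90 points in Control. Across these cytosines the 2 differences had a Pearson r of 0.905, a description over neighbouring cytosines that share libraries and kits. Of the cytosines called higher in blood in sGC, 408617 of the 415440 with Control coverage (98.4%) were also higher in blood in Control. For those called higher in HPC the figure was 128864 of 133515 (96.5%). Over all 2342490 cytosines, Control was higher in blood at 62.8% and higher in HPC at 34.4%. Cytosines chosen for a difference of at least 25 points in sGC averaged 42.7 points there and 40.9 points in Control when blood was higher, and -44.0 and -39.9 points when HPC was higher. Cytosines chosen in the Control pools averaged 42.4 points there and 39.0 in sGC when blood was higher. In each set the value was closer to 0 in the pools that had not been used for choosing, by a few points.

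Whether the tissue difference itself differed with exposure was tested at each cytosine as the difference of log odds ratios. After Benjamini-Hochberg adjustment, 269 of 2342490 cytosines (0.0115%) passed, and 101537 (4.33%) had an unadjusted p under 0.05. The difference of blood less HPC was smaller in sGC than in Control at 239 of the 269 and larger at 30. This is a signed count: regardless of sign, the gap between the tissues was wider in sGC at 166 of the 269 and narrower at 103, and the difference had opposite signs in the 2 exposures at 160. On 1 scaffold, DS563782.1, lay 187 of them (69.5%), where reads stacked to a median of 4604 per cytosine in sGC blood, and 47 of the other 82 had at least 1000 sGC reads in both tissues. With an assumed dispersion of 0.05 between animals the same test passed 0 cytosines, with 17091 at an unadjusted p under 0.05. A change of the tissue difference with exposure was thus called at few cytosines, and was not detectable once that spread between animals was assumed.

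Both strands of a CpG gave similar tissue differences where these were large. At the 475873 CpGs with both cytosines among those compared, the difference had the same sign on both strands at 71.7%, with r of 0.918 across CpGs. The median gap between the strands of these CpGs was 3.39 points, close to the median absolute tissue difference of 4.15 points over all cytosines. Where the plus strand differed by at least 25 points (62460 CpGs), the minus strand had the same sign at 99.6%. The median gap between the strands there was 6.50 points. The strands are separate reads of the same pools of DNA, so this is a check of the measurement and not of the animals.

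Differences were shared over short distances. Pairs of CpG sites 1 to 10 bp apart had tissue differences correlated at r of 0.889. The correlation was 0.689 at 101 to 200 bp, 0.520 at 201 to 500 bp and 0.259 at 501 to 1000 bp. Beyond 1000 bp it was 0.0878 up to 5000 bp and 0.00858 at 100001 to 500000 bp. The Control pools gave nearly the same values at each distance. RRBS fragments are short and reads span several CpGs, so that close pairs share reads as well as DNA.

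**Figure D3:**
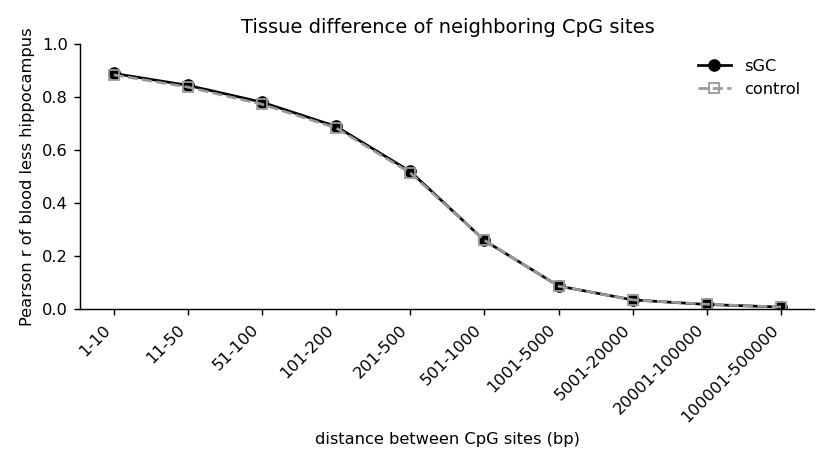
Pearson correlation of the blood less HPC difference between pairs of CpG sites (y axis) against the bin of their distance (x axis, base pairs, bins of growing width), with filled points for sGC and open points for Control. Correlation falls from 0.889 within 10 bp to 0.259 at 501 to 1000 bp and is near 0 beyond 5000 bp, and the 2 lines nearly coincide.

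On the scale of scaffolds the excess in blood was general. All 66 scaffolds with at least 10000 cytosines, which hold 72.0% of those compared, had a mean difference above 0, from 2.51 points on DS562963.1 to 9.29 on DS563015.1 (median 4.10). Blood was the higher tissue at 67.8% to 86.3% of the differing cytosines of each. In 2001 windows of 1 Mb with at least 200 cytosines, the mean was above 0 in 1899 (94.9%) and below 0 in 102, with a median of 3.68 points. Blood was higher by at least 10 points in 45 windows, and 6 windows were at -5 points or lower.

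The windows farthest from the rest lay at both ends. The highest, on DS563015.1 beginning at 2000174 and holding 2726 cytosines, averaged 69.6% in sGC blood and 48.8% in sGC HPC, a difference of 20.8 points, with 21.7 in Control. A window on DS564011.1 followed at 19.9 points, with 1021 cytosines that lay only between 59 and 21574. One on DS562971.1 with 288 cytosines (2054439 to 2996988) was at 15.7. The lowest, on the short scaffold DS565288.1, held 385 cytosines from 66 to 6850. It averaged 47.8% in sGC blood and 72.4% in sGC HPC, a difference of -24.6 points, with -24.2 in Control. A window of 258 cytosines on DS562861.1 (36031393 to 36844475) had -14.3 points in sGC and -9.32 in Control. One on DS563636.1, with 765 cytosines between 16 and 48161, had -10.4 points in sGC. In 5 of these 6 windows the sGC and Control values lay within a point of each other, and the DS562861.1 window was the exception.

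Cytosines no more than 200 bp apart were joined into regions, and 67619 regions held at least 10 cytosines. They covered 64.5% of the cytosines and had a median length of 324 bp (quartiles 209 and 486). Read sums over whole regions differed by at least 25 points at 5204 regions higher in blood (7.7% of regions) and 1738 higher in HPC (2.57%), a ratio of 2.99. All of these had the same direction in Control. At 50 points or more there were 1151 regions higher in blood (1.7%) and 435 higher in HPC (0.643%), and at 75 points or more 44 and 16. Among regions of at least 25 points, every cytosine pointed the same way in 80.5% of those higher in blood and 72.3% of those higher in HPC.

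The 6 regions with the highest difference in blood were nearly full in blood and nearly empty in HPC. A 432 bp region on DS562862.1 (60223181 to 60223612, 13 cytosines) was methylated at 95.8% in sGC blood and 10.0% in sGC HPC, with 88.6% and 10.9% in Control. A 97 bp region on DS562864.1 (40096145 to 40096241, 30 cytosines) stood at 87.9% and 4.09%, with 90.4% and 3.63% in Control. It lay 261 bp from a cytosine assigned to AGAP2, which encodes a GTPase-activating protein of Arf proteins. The others, on DS562995.1 (221815 to 221869), DS562908.1 (8889633 to 8889936), DS562899.1 (3877237 to 3877694) and DS562873.1 (39090003 to 39090154), differed by 84.2, 83.8, 83.2 and 82.2 points. All cytosines in the 6 regions were called higher in blood.

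The 6 regions at the other end mirrored them. A 212 bp region on DS562862.1 (59752803 to 59753014, 12 cytosines) had 0.622% methylation in sGC blood and 84.5% in sGC HPC, with 7.56% and 84.8% in Control. A 112 bp region on DS562882.1 (1445818 to 1445929, 22 cytosines) had 8.15% and 90.7%, with 10.1% and 88.8% in Control. Those on DS563237.1 (114968 to 115145), DS563261.1 (91257 to 91370), DS562893.1 (972049 to 972457) and DS562883.1 (21726736 to 21727131) differed by -79.5, -79.1, -78.4 and -77.9 points. All cytosines were called higher in HPC, save 2 of the 25 in the last of these. Positions are given as the tables list them on cavPor3, and whether they count from 0 or 1 is not given in the sources used here.

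The level of both tissues in regions that separate them was then described in all 4 pools, with regions chosen on the mean of the sGC and Control differences so that neither exposure was favoured. In the 1174 regions at least 50 points higher in blood, blood averaged 89.1% in sGC and 82.1% in Control, and HPC averaged 30.1% in sGC and 23.7% in Control. The sGC pool was the higher of the 2 in 97.2% of these regions in blood and in 96.3% in HPC. In the 417 regions at least 50 points higher in HPC, blood averaged 11.2% in sGC and 16.9% in Control, and HPC 71.7% in sGC and 76.3% in Control. Here the sGC pool was the higher one in only 3.36% of regions in blood and 8.87% in HPC. The sGC pools of both tissues were thus higher than Control where blood was the more methylated tissue, and lower than Control where HPC was.

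Regions with smaller tissue differences followed the same order. In the 4138 regions 25 to 50 points higher in blood, blood averaged 83.2% in sGC and 79.2% in Control, and HPC 48.3% and 43.3%. In the 1242 regions 25 to 50 points higher in HPC, blood averaged 30.6% and 33.9%, and HPC 66.4% and 68.7%. In the 40224 regions within 5 points the sGC pools were only 0.151 points (blood) and 0.471 points (HPC) above Control. The gap between tissues was almost the same in both exposures, at 59.0 points in sGC and 58.4 in Control for the regions most hypermethylated in blood, and -60.5 and -59.5 points for those most hypermethylated in HPC. Since each pool is 1 sum over 6 animals, its departure from the other pool of that tissue had no replicate check, and the parts that the makeup of the tissue samples, single animals or batch might play were not tested.

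**Figure D4:**
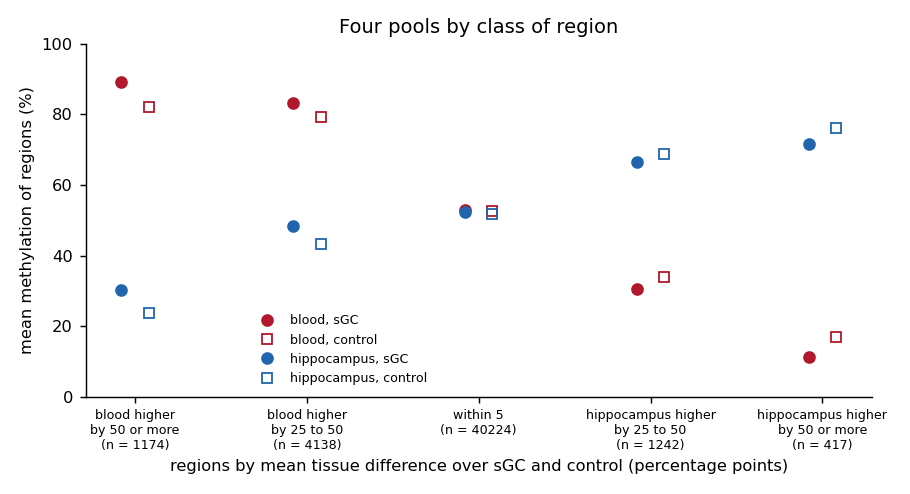
Mean methylation (y axis, %) of the 4 pools in classes of regions defined by the mean of the sGC and Control tissue differences (x axis, from regions higher in blood on the left to regions higher in HPC on the right), with filled circles for sGC and open squares for Control. In the class at least 50 points higher in blood, sGC stands above Control in both tissues (89.1% against 82.1% and 30.1% against 23.7%), and in the class at least 50 points higher in HPC it stands below Control in both.

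Gene names were taken from cytosines that the study assigned to genes, so that the genes are ones at which a cytosine had differed with exposure and are no random sample of the genome. Those cytosines were called by the study in these same animals. A shift between sGC and Control in the stretches is therefore built into the choice and is not read as a result. A gene is represented here by all compared cytosines on both strands from the first to the last cytosine assigned to it, which is often a short stretch and not the whole gene. The names come from tables held only in part, so that a gene missing here may still have been assigned cytosines by the study. Whether a stretch is exonic, intronic or in a promoter was not analysed here. Of 170 named genes, 57 had at least 10 such cytosines. Blood was higher by 5 points or more at 40 of them and HPC at 7, and 10 were within 5 points, with a median difference of 25.1 points. Among all regions 31.1% were higher in blood and 9.1% in HPC by that measure, with a median of 1.57 points. Differences of 50 points or more were found at 13 genes in blood and 3 in HPC, beside 1.7% and 0.643% of all regions, and 56 of the 57 had the same direction in Control.

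**Figure D5:**
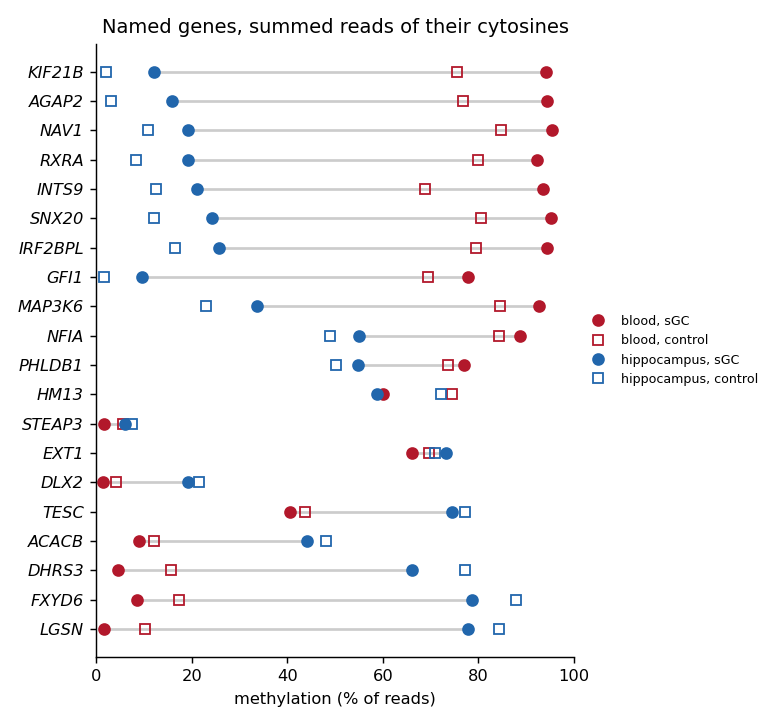
Methylation (x axis, % of reads) of the 4 pools at the stretches of the 8 genes highest in each direction and of 4 further genes chosen from those named in the study's paper, 1 gene per line, with filled circles for sGC, open squares for Control and grey bars joining the sGC tissues. KIF21B is at the top with 94.1% in sGC blood and 12.1% in sGC HPC, and LGSN at the bottom with 1.52% and 77.9%.

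KIF21B, AGAP2 and NAV1 had the largest differences toward blood of the 57 genes. KIF21B, a kinesin motor of neurons, was methylated at 94.1% in sGC blood and 12.1% in sGC HPC (DS562867.1, 21373527 to 21373718), and at 75.5% and 2.00% in Control. Its difference was 82.0 points (95% interval by Newcombe's method 80.6 to 83.3, counting error at most), and all 22 cytosines were called. AGAP2 (DS562864.1, 40096502 to 40096643) had 94.3% in sGC blood and 15.8% in sGC HPC, against 76.9% and 2.95% in Control, with 17 of 17 cytosines called. NAV1, a microtubule-associated protein of growing neurons, had 95.5% and 19.2% (DS562867.1, 20824030 to 20824154), against 84.7% and 10.8% in Control. At these 3 genes the tissues stood more than 70 points apart in either exposure, and both tissues were higher in sGC than in Control. The shift with exposure is built into how the stretches were chosen.

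The other genes of the 8 highest in blood had varied roles. RXRA, the retinoid X receptor alpha that pairs with many nuclear receptors, had 92.4% in sGC blood and 19.2% in sGC HPC. INTS9, a subunit of the Integrator complex that processes small nuclear RNAs, had 93.6% and 21.1%. SNX20, a sorting nexin of leukocytes, had 95.2% and 24.1%. These 3 differed by 73.1, 72.5 and 71.1 points. IRF2BPL followed at 94.5% and 25.6%. GFI1, a zinc finger repressor needed for blood cell development, stood at 77.8% in sGC blood and 9.58% in sGC HPC over 83 cytosines (DS562857.1, 18364966 to 18365551), all of them called.

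Genes hypermethylated in HPC were fewer. LGSN, a lens protein related to glutamine synthetase, had 1.52% in sGC blood and 77.9% in sGC HPC (DS562855.1, 82847323 to 82847680), against 10.2% and 84.4% in Control, with 19 of 19 cytosines called. FXYD6, a regulator of the sodium pump, had 8.42% and 78.7%, and all 10 of its cytosines were called. DHRS3, which reduces retinaldehyde, had 4.40% and 66.1%. At these 3 genes both tissues were lower in sGC than in Control, the opposite of the genes above. Here too a shift with exposure is built into the choice of stretches, and its direction was not tested. ACACB, the mitochondrial form of acetyl-CoA carboxylase, differed by -35.1 points and TESC, a calcium-binding protein, by -34.1. TESC was mixed, with 57 of its 114 cytosines called higher in HPC and 5 higher in blood.

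The last 3 of the 8 genes highest in HPC had smaller differences than these. DLX2, a homeobox gene of forebrain interneurons, was nearly unmethylated in sGC blood at 1.39% and stood at 19.2% in sGC HPC, a difference of -17.8 points. EXT1, an enzyme of heparan sulfate synthesis, differed by -7.17 points over both strands but by 5.48 points on the strand to which its cytosines were assigned, and by -2.88 points as a mean over cytosines. STEAP3, a ferrireductase of red cell precursors, had 1.51% and 5.88%, a difference of -4.38 points.

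Of a list of 26 neuronal and neurodevelopmental genes, 25 were named and 16 had at least 10 cytosines. Blood was higher by at least 5 points at 12 of the 16 and HPC at 1 (DLX2), and 3 were within 5 points, with a median of 24.5 points beside the 25.1 of all 57 genes. Of the 3669 cytosines in these genes, 1408 (38.4%) were called higher in blood and 231 (6.30%) higher in HPC, beside 38.4% and 8.12% of the cytosines of all 57 genes and 17.6% and 5.65% of all cytosines compared. NFIA, a transcription factor of glial differentiation, was spread over a long stretch with 561 cytosines and had 88.6% in sGC blood and 55.1% in sGC HPC, with 342 called higher in blood and 18 higher in HPC. ZEB2, a zinc finger repressor of neural crest and cortex, differed by 41.2 points and SLIT1, an axon guidance ligand, by 23.9. ROR1 and CSMD1, with 819 and 1078 cytosines, had small differences of 3.85 and 4.00 points over summed reads. These sums hid cytosines of both directions: in ROR1 230 were called higher in blood and 110 higher in HPC. MEF2C, a transcription factor of neurons and muscle, had 72.4% in sGC blood and 74.1% in sGC HPC, with 13 cytosines called higher in blood and 6 higher in HPC. Its difference was -1.72 points over summed reads, -10.2 on its named strand and 1.97 as a mean over cytosines, so that no direction is given for it.

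Of a list of 12 immune and blood genes all were named, but only 4 had at least 10 cytosines, with a median difference of 36.2 points beside the 25.1 of all 57 genes. That median lies between a high pair and a low pair and describes neither. Of the 132 cytosines in these 4 genes, 18.9% were called higher in blood and 8.33% higher in HPC, beside 17.6% and 5.65% of all cytosines compared and 38.4% and 8.12% of those of all 57 genes. STEAP3 held 75 of the 132 and HM13 held 32, so that these shares rest mostly on STEAP3 and HM13. GFI1, with all 83 of its cytosines called higher in blood, was not on the list. The shares thus describe this list and not blood genes at large. RXRA and SNX20 were higher in blood, and STEAP3 and HM13 were within 5 points. HM13, which encodes signal peptide peptidase, had 60.1% in sGC blood and 58.7% in sGC HPC (DS562863.1, 1475809 to 1476163), with 74.4% and 72.2% in Control. None of its 32 cytosines was called between tissues, and its 95% interval of -0.514 to 3.33 points leaves room for a small difference either way. That interval is too narrow, since a read spanning several cytosines was counted at each. HM13 was thus near 60% methylated in both exposed tissues and above 70% in both Control tissues. Its stretch was chosen for cytosines that differed with exposure, so that this shift is built into the choice.

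Of 12 glucocorticoid signalling genes, NR4A1 and NR4A2, orphan nuclear receptors encoded by immediate early genes, were among the 170 names used here. NR4A1 had 78.4% in sGC blood and 28.4% in sGC HPC, against 72.7% and 16.5% in Control, with all 13 cytosines called. NR4A2 had 76.7% and 62.1%, against 66.6% and 62.6% in Control, with 12 of 34 cytosines called. Of the 47 cytosines in these 2 genes, 25 (53.2%) were called higher in blood and 0 higher in HPC. Beside these stand 38.4% and 8.12% of the cytosines of all 57 genes, and 17.6% and 5.65% of all cytosines compared. None of 8 genes of the DNA methylation machinery was among these 170, which says nothing about the genes outside the tables used. Of 8 genes chosen from those named in the study's paper, MAP3K6, a stress-activated kinase, had 92.7% and 33.6% with all 42 cytosines called. PHLDB1 had 77.0% and 54.8%, with 113 of 216 cytosines called higher in blood and 14 higher in HPC. MDGA1, a cell adhesion protein of developing cortex, had 8 cytosines only, all called higher in blood. In the 7 of these 8 genes with at least 10 cytosines, 61.1% of 910 cytosines were called higher in blood and 3.52% higher in HPC.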

How the data were processed

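RRBS libraries of 24 samples were trimmed with Trim Galore, aligned with Bismark 0.16.0 and sorted with SAMtools 1.7, per the submitters' processing notes, and the study's methods name MethPipe with batch as a covariate. The authors deposited 1 table per tissue of methylated and total read counts per cytosine, summed over the 6 animals of each group, for cytosines with at least 10 reads. A deposited FDR (q-value) column of their sGC against Control test was not used.

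Counts were used without normalisation. Methylation was methylated over total reads, compared by Fisher's exact test with Benjamini-Hochberg adjustment (scipy 1.17.1, pandas 2.3.3, numpy 2.4.6, Python 3.11.15). The difference of tissue differences was tested on log odds ratios with 0.5 added to each count. The steps were tested on simulated data. Summed reads were 293034612 in sGC blood, 279783047 in sGC HPC, 243136986 in Control blood and 250484044 in Control HPC. Intervals cover counting error at most, since the counts are sums over animals. A read spanning several cytosines of a stretch was counted at each, which makes the intervals narrower than counting error. Whether PCR duplicates were removed is not given in the sources used here.

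Genes named were, among those with at least 10 cytosines, the 8 highest in each tissue and the members of fixed lists, with 8 genes chosen from those named in the study's paper (1 of which, MDGA1, had fewer cytosines), and among regions the 6 and among windows the 3 at each end. Of the study's 3 gene tables, 2 were held only in part. Of the 170 symbols, 168 matched RefSeq genes of another build (mCavPor4.1), from which no coordinates were taken. The members, lists and tests were chosen with earlier results of these data known. Alternatives covered coverage, minimum difference, dispersion between animals, adjustment, strand, region rules and weighting. Leaving out single animals was not possible.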

Additional observations from a re-analysis of the deposited data

Results flagged for a closer look

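A test of the difference between the exposed and the Control animals' tissue differences passed 269 cytosines, of which 187 lay on scaffold DS563782.1. That scaffold held 1698 of the cytosines compared, between positions 454 and 26516, and took 3.33% of all sGC blood reads and 3.02% of all sGC HPC reads. Its mean tissue difference was -0.510 points in sGC and 1.25 points in Control. The other 82 cytosines lay on 33 scaffolds, and the difference of blood less HPC was larger in sGC at 29 of them and smaller at 53. Of these 82, 47 also had at least 1000 sGC reads in both tissues, a depth reached by 0.128% of all cytosines compared. They lay on 10 scaffolds, among them DS563392.1 with 20 (1889 to 24448 sGC blood reads), DS565224.1 with 9 (9437 to 10142) and DS564531.1 with 5 (17115 to 94659). The other 35 lay on 23 scaffolds, with the difference larger in sGC at 11 and smaller at 24. The part of the stacked reads in these calls was not tested.

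Outside that scaffold, a pair of clusters of at least 3 passing cytosines had the greatest change of the tissue difference in either exposure, and they were chosen after their values were seen. On DS562865.1 (39960782 to 39960971), 3 cytosines averaged 8.19% in sGC blood and 56.2% in sGC HPC, against 60.4% in Control blood and 69.5% in Control HPC. The tissue difference in sGC less that in Control was -38.8 points there, with a smallest adjusted p of 2.59e-05 by the test on log odds ratios. With an assumed dispersion of 0.05 between animals the same test passed 0 cytosines, so this cluster did not pass. The sGC blood pool was the 1 of the 4 that stood apart.

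On DS562861.1 (36046267 to 36046301), 4 cytosines averaged 63.4% in sGC blood and 84.8% in sGC HPC, against 76.6% and 66.1% in Control. The tissue difference in sGC less that in Control was -31.9 points, and its sign differed between exposures, with a smallest adjusted p of 0.00423. This cluster lies in the 1 Mb window that had -14.3 points in sGC and -9.32 in Control. This cluster did not pass with the assumed dispersion of 0.05 either. Neither cluster had a replicate check, since each pool is 1 sum over 6 animals, and the part of single animals was not tested.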

How the results depend on the processing

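No paired analysis was possible because the deposited columns are sums over the 6 animals of a group, and for the same reason no animal could be left out. The excess in blood kept its direction under each alternative run. Beside the 555675 differing cytosines (23.2% of those tested), 323021 were called when only the 1164247 with at least 100 reads were tested (27.7%). Separate fits called 289927 at a minimum of 25 points, 87325 at 50 points, 186496 after Bonferroni adjustment and 155809 with an assumed dispersion of 0.2 between animals. The share of differing cytosines higher in blood was 75.9% with both strands of a CpG summed and 74.3% with a dispersion of 0.2. It was 74.6% at 25 points and 72.1% at 50 points. Of regions that differed by at least 25 points without a test, each counted once, 75% were higher in blood. At a minimum of 5 points 77.3% of the differing regions were. The mean difference was 4.46 points at 10 reads, 4.24 at 50 reads, 4.10 at 100 reads, 4.34 with CpG strands summed and 2.53 with cytosines weighted by reads. In Control it was 4.66 at 50 reads. The 6942 regions of 25 points or more became 16058 with at least 5 cytosines per region and 1586 at 50 points. The median over genes was 22.3 points as a mean over cytosines, and EXT1 reversed to 5.48 points on its named strand. The 269 cytosines of the test between exposures became 0 with a dispersion of 0.05 (17091 at an unadjusted p under 0.05) and 48 without DS563782.1 (100748 unadjusted), the latter an alternative chosen after seeing the data. Both dispersions were assumed and not measured.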
